A study of Homo sapiens with 12 samples.

Results

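The 9 genes described here encode parts of the MHC class I antigen presentation pathway, and they were chosen by name, as every row of the count matrices of HCT116 cells whose gene symbol is HLA-B, HLA-C, HLA-E, TAP1, TAP2, TAPBP, PSMB8, PSMB9, or NLRC5. All 9 were found among 60708 genes, and all 9 passed the filter on low counts in both experiments, PSMB8 through libraries numbered 2 and 3. HCT116 is a line of human colon cancer cells, labelled wild type, so every library comes from 1 line in culture. In the OA experiment, 3 libraries of cells treated for 24 h with OA (oligomycin A, an inhibitor of the mitochondrial ATP synthase) were compared with 3 DMSO-treated libraries. In the TN experiment, 3 libraries of cells treated for 24 h with TN (tunicamycin, an inhibitor of protein N-glycosylation) were compared with 3 other DMSO-treated libraries. The sample labels give a dose of 5 µg/ml for both drugs, whereas the study's methods give a higher dose of OA. The labels number the biological replicates of each group from 1 to 3. Libraries numbered 2 and 3 of the TN experiment were also set against those numbered 1, because interferon-stimulated genes (ISGs) differ widely between these numbers in both the DMSO-treated and the TN-treated cells. That split was proposed with the values of these libraries known, and it is given as a description without a test.

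MHC class I molecules carry peptides from inside the cell to its surface, where CD8+ T cells and natural killer cells read them. The proteasome cuts proteins into peptides, and its interferon-inducible form replaces the constitutive catalytic subunits with PSMB8, PSMB9, and PSMB10. The peptides cross into the endoplasmic reticulum through the TAP1 and TAP2 transporter and are loaded with the help of tapasin (TAPBP), calreticulin (CALR), and ERp57 (PDIA3) onto a class I heavy chain paired with B2M. Transcription of most of these genes responds to interferons through STAT and IRF factors, to NF-kB, and to the coactivator NLRC5.

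Library totals ranged from 9884124 to 24983573 counts, and RN7SL1, the RNA of the signal recognition particle, took 6.02% to 17.9% of them, with the highest share in OA library 2 and the next highest, 13.3%, in TN library 1. Of 13 colon epithelial markers, 7 exceeded 1 CPM (counts scaled to a common library size) in at least 1 library, including EPCAM, KRT8, KRT18, and CDX2, while CDX1, CEACAM5, CEACAM6, and LGR5 had no counts in any library. Of 13 leukocyte markers, 2 exceeded 1 CPM, namely HLA-DRA and ITGAX, and 6 had no counts in any library. The leukocyte markers summed to 4.03 to 5.14 CPM in the DMSO libraries and 4.72 to 7.57 CPM in the OA libraries of the OA experiment, and to 8.6 to 10.8 CPM and 9.96 to 11.5 CPM in those of the TN experiment. PTPRC, which defines leukocytes, had 1 count over all libraries. In the OA experiment, 7 fibroblast markers summed to 1.42 to 2.59 CPM in the DMSO and 4.67 to 12.9 CPM in the OA libraries. There 4 endothelial markers summed to 0.21 to 0.632 and 0.798 to 2.7 CPM. In the TN experiment the fibroblast sums were 1.99 to 4.6 and 2.58 to 4.53 CPM. The endothelial sums there were 0.683 to 0.986 and 0.316 to 0.773 CPM. What these sums reflect was not tested.

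Of the 9 genes, 8 lie on chromosome 6 (hg38) and NLRC5 lies on chromosome 16 at chr16:56989485-57083531 on the plus strand. TAP2 (chr6:32821833-32838739, minus strand), PSMB8 (chr6:32840717-32844679, minus strand), TAP1 (chr6:32845209-32853816, minus strand), and PSMB9 (chr6:32844136-32859851, plus strand) are neighbours, and TAPBP lies at chr6:33299694-33314284 on the minus strand. The heavy chain genes lie at chr6:31353872-31367067 (HLA-B, minus strand), chr6:31268749-31272130 (HLA-C, minus strand), and chr6:30489509-30494194 (HLA-E, plus strand). Which strand column of the gene counts was deposited is not stated, so reads from an opposite-strand gene may count toward a member. Exons of an opposite-strand gene cover 40.5% of the canonical transcript of TAPBP, 23.7% of that of HLA-B, and 21.5% of that of TAP1, the last by PSMB8-AS1. Exons of a same-strand gene without a symbol cover 35.8% of that of TAP2. Of all 50-base stretches of the reference transcript, 2.5% in HLA-B, 6.6% in HLA-C, and 4.8% in HLA-E also occur in another class I gene. HLA genes are highly variable, and reads from the alleles of HCT116 cells were aligned to the reference alleles, so levels of these 3 genes carry that uncertainty.

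RefSeq promoter windows (GRCh38.p14) were matched by symbol for 7 of the 9 genes. The 250 bases before the transcription start are shown for the 6 genes whose values carry the comparisons below, so that the motifs of genes that differ in their values can be compared. Capitals mark any match, on either strand, to the core of the interferon-stimulated response element (ISRE; GAAA, any 2 bases, GAAA), TTCNNNGAA (core of the gamma-activated site), or CCAAT (the box bound by NF-Y).
HLA-B, chr6:31357180-31357429, minus strand: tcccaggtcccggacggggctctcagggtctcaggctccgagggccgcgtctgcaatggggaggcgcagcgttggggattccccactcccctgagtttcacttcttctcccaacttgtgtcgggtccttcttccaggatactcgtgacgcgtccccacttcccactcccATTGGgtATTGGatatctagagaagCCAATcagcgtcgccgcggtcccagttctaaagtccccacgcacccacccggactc
HLA-C, chr6:31272093-31272342, minus strand: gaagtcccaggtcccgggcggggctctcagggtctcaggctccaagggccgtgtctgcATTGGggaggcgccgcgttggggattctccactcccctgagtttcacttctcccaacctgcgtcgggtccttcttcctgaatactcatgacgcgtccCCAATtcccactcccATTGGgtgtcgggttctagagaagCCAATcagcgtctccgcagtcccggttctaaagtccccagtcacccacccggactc
TAP1, chr6:32853705-32853954, minus strand: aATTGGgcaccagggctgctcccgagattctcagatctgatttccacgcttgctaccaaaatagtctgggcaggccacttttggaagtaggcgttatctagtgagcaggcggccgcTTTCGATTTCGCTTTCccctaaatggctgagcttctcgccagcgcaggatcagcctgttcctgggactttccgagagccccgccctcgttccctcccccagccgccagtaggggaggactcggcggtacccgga
PSMB9, chr6:32853942-32854191, plus strand: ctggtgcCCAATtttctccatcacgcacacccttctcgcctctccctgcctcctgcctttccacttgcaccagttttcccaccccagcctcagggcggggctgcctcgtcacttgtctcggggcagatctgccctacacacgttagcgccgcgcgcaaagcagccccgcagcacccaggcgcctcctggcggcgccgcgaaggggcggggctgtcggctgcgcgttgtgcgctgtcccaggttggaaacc
TAP2, chr6:32838740-32838989, minus strand: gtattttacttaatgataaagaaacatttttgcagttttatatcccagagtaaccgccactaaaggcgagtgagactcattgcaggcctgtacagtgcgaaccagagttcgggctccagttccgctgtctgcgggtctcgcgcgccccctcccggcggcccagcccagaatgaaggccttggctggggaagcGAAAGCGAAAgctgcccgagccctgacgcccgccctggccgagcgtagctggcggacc
TAPBP, chr6:33314079-33314328, minus strand: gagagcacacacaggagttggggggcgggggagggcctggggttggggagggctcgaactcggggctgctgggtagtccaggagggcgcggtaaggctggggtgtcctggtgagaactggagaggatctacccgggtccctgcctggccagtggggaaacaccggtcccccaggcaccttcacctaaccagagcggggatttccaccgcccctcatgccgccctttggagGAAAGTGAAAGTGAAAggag

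The ISRE core occurred in the windows of 3 of these 7 genes, TAP1, TAP2, and TAPBP, whereas 3.02% of all 35116 RefSeq promoter windows of this length hold it. In TAP1, 2 overlapping matches began 134 and 128 bases before the start, in TAP2 1 match began 58 bases before it, and in TAPBP 2 overlapping matches began 20 and 14 bases before it. TTCNNNGAA occurred in 2 of the 7 genes, in PSMB8 and at another annotated start of TAP1, against 6.57% of all windows. CCAAT occurred in 4 of the 7, HLA-B, HLA-C, TAP1, and PSMB9, against 32% of all windows. From the RefSeq starts used for these windows, TAP1 and PSMB9 are transcribed away from each other, although the PSMB9 gene of the annotation above spans TAP1. These windows overlap, so that the CCAAT match of the TAP1 window and that of the PSMB9 window are the same bases. A match of letters does not show that a factor binds there. Nor does the lack of a match show that an element is absent. Variants of these cores and bases outside the windows were not searched.

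Levels per transcript length differed widely among the 9 genes. In the DMSO libraries of the OA experiment, the mean CPM per kilobase of canonical transcript was 186 for HLA-C, 92.2 for HLA-B, 59.7 for HLA-E, 22.8 for TAP1, 11.2 for PSMB9, 5.44 for TAPBP, 1.65 for TAP2, 1.18 for NLRC5, and 0.36 for PSMB8. The libraries of neighbours in this order did not overlap, except those of TAP2 and NLRC5. The heavy chains were thus the most abundant of these transcripts and the immunoproteasome subunit PSMB8 was close to the limit of detection.

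**Figure D1:**
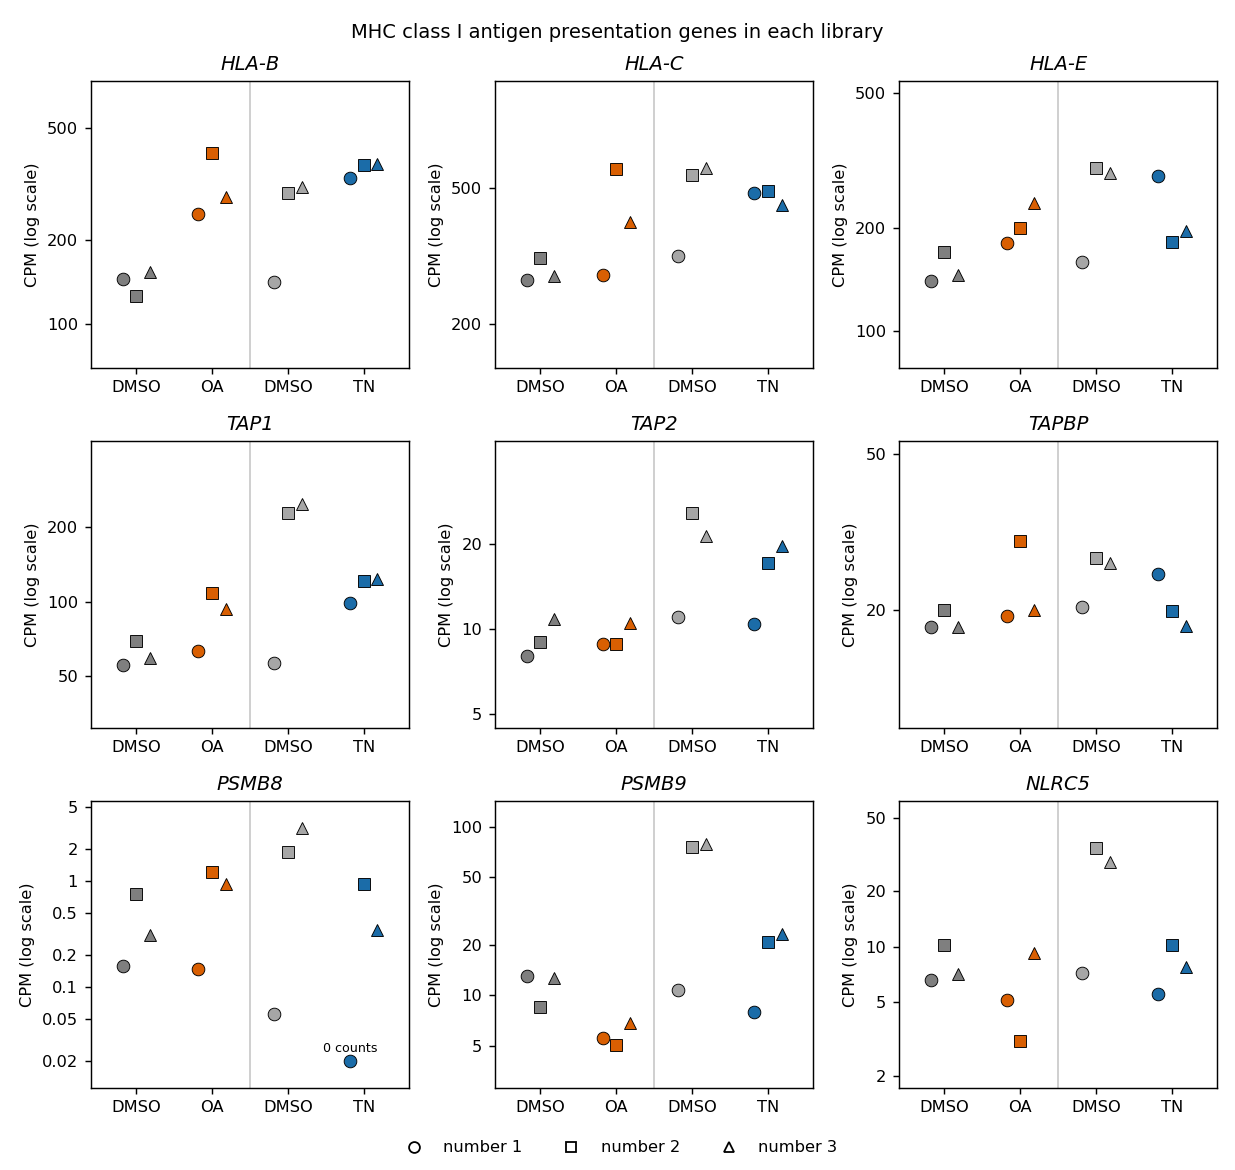
The panels plot the level of each gene in CPM (log axis, scaled by gene) in each of the 12 libraries, grouped into DMSO and OA (left of the line) and DMSO and TN (right of the line), with the marker shape giving the number of the library; the TN library with 0 counts of PSMB8 is drawn near the bottom of its axis. HLA-B in the OA libraries, at 247 to 410 CPM, lies above its DMSO libraries, and DMSO library 1 of the TN experiment lies below DMSO libraries 2 and 3 for every gene.

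The first comparison asked whether the class I pathway responds to OA, a mitochondrial stressor. HLA-B rose in OA-treated cells, while the other 8 genes did not pass the test. HLA-E was also higher, and PSMB9 lower, in every OA library than in every DMSO library. By the edgeR quasi-likelihood F test, Benjamini-Hochberg adjusted over all genes, 1 of the 9 was called higher and 0 lower, where 2.76% of 14681 tested genes were called higher and 1.72% lower, 4.48% in all. Without overlap between treated and DMSO libraries, 2 of the 9 were higher and 1 was lower, where 16.3% and 15.5% of all tested genes were. The median log2 fold change of the 9 was 0.44, compared to -0.02 for all tested genes. This median was 0.23 without OA library 2 and 0.24 with scaling to total counts, under which the median of all tested genes moved to -0.23. In RNA from bulk cultures, fewer cells with a transcript and less of it per cell cannot be told apart.

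HLA-B, a classical heavy chain, was at 145, 126, and 154 CPM in the DMSO libraries and at 247, 410, and 285 CPM in the OA libraries. All OA libraries were above all DMSO libraries, and OA library 2 was the highest. The log2 fold change was 1.15 ± 0.26 (SE, n = 3 per group), with an adjusted p of 0.0485 by the edgeR quasi-likelihood F test, Benjamini-Hochberg adjusted. The call is close to the threshold: when 1 library was left out, the adjusted p ranged from 0.0333 to 0.213 at log2 fold changes of 0.91 to 1.28. It did not pass without any 1 of the 3 DMSO libraries, where 3 to 5 genes of all tested were called, or without OA library 3, where 91 were.

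HLA-C, another classical heavy chain, was at 269, 313, and 277 CPM in the DMSO libraries and at 278, 569, and 397 CPM in the OA libraries. OA library 1 lay within the range of the DMSO libraries, and the other two OA libraries lay above it. The log2 fold change of HLA-C was 0.53 ± 0.29 (SE, n = 3), and its adjusted p of 0.308 by the edgeR quasi-likelihood F test, Benjamini-Hochberg adjusted did not pass. Without OA library 2, its log2 fold change was 0.23. HLA-E, a nonclassical heavy chain that presents leader peptides to natural killer cells, was at 140, 170, and 146 CPM in the DMSO libraries and at 181, 201, and 237 CPM in the OA libraries. These libraries did not overlap. Its log2 fold change was 0.44 ± 0.22 (SE, n = 3) with an adjusted p of 0.28 by the edgeR test.

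TAP1, a subunit of the peptide transporter, was at 55.4, 69.3, and 59.2 CPM in the DMSO libraries and at 63.1, 108, and 93.3 CPM in the OA libraries. OA library 1 lay between DMSO libraries, so the groups overlapped. Its log2 fold change was 0.52 ± 0.27 (SE, n = 3), with an adjusted p of 0.283 by the edgeR quasi-likelihood F test, Benjamini-Hochberg adjusted. TAP2, its partner, was at 8.02, 8.97, and 10.9 CPM in the DMSO libraries and at 8.85, 8.88, and 10.5 CPM in the OA libraries, that is, over the same range. Its log2 fold change of 0.02 ± 0.28 (SE, n = 3) had an adjusted p of 0.978 by the edgeR test, and it changed sign with the scaling. TAPBP was at 18.1, 20.1, and 18.1 CPM in the DMSO libraries and at 19.4, 30, and 20.1 CPM in the OA libraries, where OA library 2 alone stood above the rest, with a log2 fold change of 0.30 ± 0.27 (SE, n = 3), and of 0.07 without that library.

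PSMB9, an immunoproteasome subunit, was at 13, 8.5, and 12.6 CPM in the DMSO libraries and at 5.6, 5.09, and 6.84 CPM in the OA libraries. All OA libraries were below all DMSO libraries. PSMB9 had a log2 fold change of -0.96 ± 0.31 (SE, n = 3), and its adjusted p was 0.114 by the edgeR quasi-likelihood F test, Benjamini-Hochberg adjusted. With DESeq2 in place of edgeR the adjusted p was 0.0471, where 13.1% of tested genes were called, and with GC offsets it was 0.037, where 20.3% were called. For PSMB8, the DMSO libraries held 3, 19, and 6 counts and the OA libraries 2, 12, and 9 counts, too few to resolve a difference of the size seen in PSMB9. NLRC5, the class I coactivator, was at 6.61, 10.2, and 7.12 CPM in the DMSO libraries and at 5.16, 3.09, and 9.23 CPM in the OA libraries, which overlapped, with a log2 fold change of -0.46 ± 0.43 (SE, n = 3) that was -0.18 without OA library 2, -0.19 without DMSO library 2, and -0.95 without OA library 3.

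**Figure D2:**
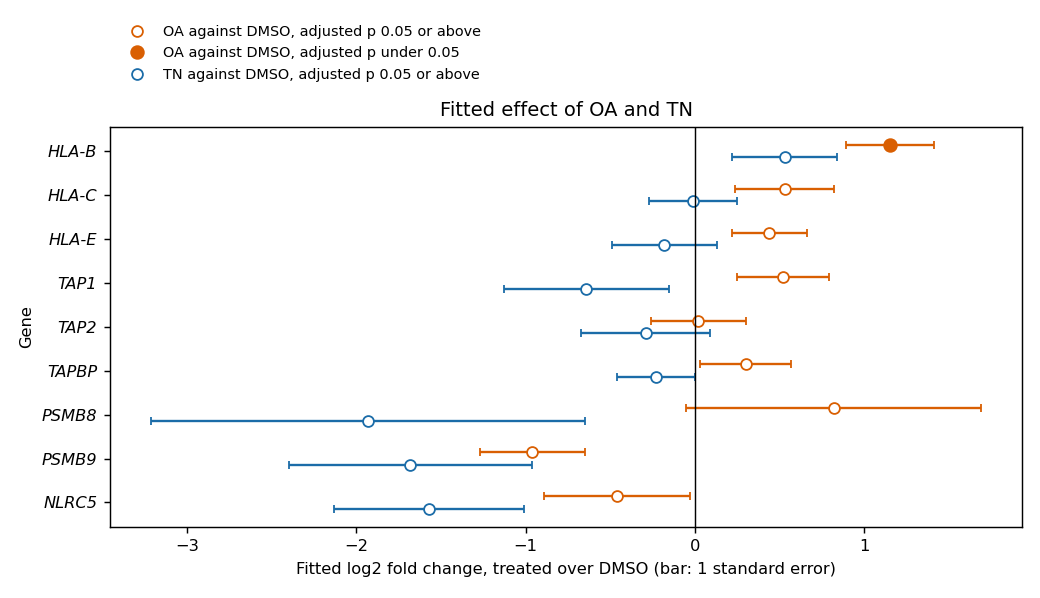
The plot shows the fitted log2 fold change of each gene (x axis) for OA (orange) and TN (blue) against their DMSO libraries, with bars of 1 standard error and filled points for an adjusted p under 0.05. HLA-B under OA, at 1.15, is the filled point, and each OA point lies to the right of the TN point of the same gene.

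The second comparison asked the same of TN, which blocks N-glycosylation in the endoplasmic reticulum, where class I molecules are loaded. None of the 9 genes passed the test without a block for the replicate number, and PSMB9 and NLRC5 passed with it. Of the genes other than PSMB8, these 2 had the largest fitted differences, both toward lower levels in TN-treated cells. PSMB8 held 0 to 42 counts per library and passed the filter on low counts through libraries numbered 2 and 3. Its fitted difference is therefore not taken as a result. By the edgeR quasi-likelihood F test, Benjamini-Hochberg adjusted, 0 of the 9 were called, where 6.99% of 14432 tested genes were, 3.65% higher and 3.34% lower. At an unadjusted p under 0.05, 1 of the 9 passed, where 24.3% of all tested genes did, and DESeq2 called 1 of the 9, where it called 15% of all tested genes. The gene was NLRC5 in each case. Without a filter on low counts, PSMB9 (adjusted p = 0.00971) and NLRC5 (adjusted p = 0.00751) passed the edgeR test, where 5.85% of all genes did. Without overlap between the groups, 1 of the 9 was higher, where 15.9% of all tested genes were, and 0 were lower, where 16.8% of all tested genes were. The median log2 fold change of the 9 was -0.29, compared to -0.03 for all tested genes, and it ranged from -0.55 to -0.17 when 1 library was left out, at -0.55 without DMSO library 1, -0.50 without TN library 3, and -0.17 without DMSO library 2. With a filter of at least 10 counts in every library, which leaves out PSMB8, it was -0.26.

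HLA-B was at 141, 293, and 308 CPM in the DMSO libraries and at 333, 369, and 374 CPM in the TN libraries. Every TN library was above every DMSO library, but DMSO library 1 was far below the other two DMSO libraries, so that the spread of the DMSO group was wide. The log2 fold change of HLA-B was 0.53 ± 0.31 (SE, n = 3), with an adjusted p of 0.335 by the edgeR quasi-likelihood F test, Benjamini-Hochberg adjusted. HLA-C was at 317, 547, and 571 CPM in the DMSO libraries and at 484, 489, and 447 CPM in the TN libraries, all of which lay between DMSO library 1 and the other two. Its log2 fold change was -0.01 ± 0.26 (SE, n = 3). HLA-E was at 159, 302, and 291 CPM in the DMSO libraries and at 285, 182, and 196 CPM in the TN libraries, in the reverse order by number, with a log2 fold change of -0.18 ± 0.31 (SE, n = 3).

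TAP1 was at 56.6, 229, and 249 CPM in the DMSO libraries and at 99, 121, and 124 CPM in the TN libraries. The TN libraries were close to each other and lay between DMSO library 1 and the other two. The log2 fold change of TAP1 was -0.64 ± 0.49 (SE, n = 3), with an adjusted p of 0.484 by the edgeR quasi-likelihood F test, Benjamini-Hochberg adjusted. TAP2 was at 11, 25.9, and 21.4 CPM in the DMSO libraries and at 10.4, 17.2, and 19.8 CPM in the TN libraries, with library 1 lowest in both groups. TAPBP was at 20.4, 27.2, and 26.4 CPM in the DMSO libraries and at 24.7, 19.9, and 18.3 CPM in the TN libraries, which overlapped. Their log2 fold changes were -0.29 ± 0.38 for TAP2 and -0.23 ± 0.23 for TAPBP (SE, n = 3).

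PSMB9 was at 10.7, 76.1, and 78.7 CPM in the DMSO libraries and at 8.01, 20.6, and 23.1 CPM in the TN libraries. Within each number, the TN library was below its DMSO library. The log2 fold change of PSMB9 was -1.68 ± 0.72 (SE, n = 3), with an adjusted p of 0.208 by the edgeR quasi-likelihood F test, Benjamini-Hochberg adjusted. NLRC5 was at 7.17, 34.3, and 28.9 CPM in the DMSO libraries and at 5.58, 10.2, and 7.73 CPM in the TN libraries, again below the DMSO library of the same number each time. Its log2 fold change was -1.57 ± 0.56 (SE, n = 3), with an adjusted p of 0.137 by the edgeR test, and of 0.0411 without DMSO library 1. For PSMB8, the DMSO libraries held 1, 33, and 42 counts and the TN libraries 0, 10, and 4 counts.

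Since same-numbered libraries of the TN experiment deviated together, the replicate number was also fitted as a block. In that fit PSMB9 fell by 1.43 on the log2 scale (adjusted p = 0.00783) and NLRC5 fell by 1.39 (adjusted p = 0.0123), both by the edgeR quasi-likelihood F test, Benjamini-Hochberg adjusted. These 2 of the 9 passed where 27.1% of all tested genes did, so that the share among the 9 is near that of all genes. With the libraries numbered 2 and 3 alone, a setting added after the data were seen, 8 of the 9 passed, where 42.8% of all tested genes did, and TAP2 was the exception. PSMB8 is among the 8, with 33 and 42 counts in these DMSO libraries and 10 and 4 in the TN libraries. It passed the filter on low counts through the DMSO libraries, so its call is not taken as a result. With those libraries, PSMB9 fell by 1.75 on the log2 scale (adjusted p = 4.09e-12), NLRC5 by 1.75 (adjusted p = 9.54e-09), TAP1 by 0.90 (adjusted p = 8.49e-10), and HLA-E by 0.58 (adjusted p = 5.61e-07) in the same edgeR test. In the same fit, HLA-B rose by 0.38 (adjusted p = 8.78e-05). This setting rests on 2 libraries per group that are close to each other, so its p-values reflect only their spread.

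**Figure D3:**
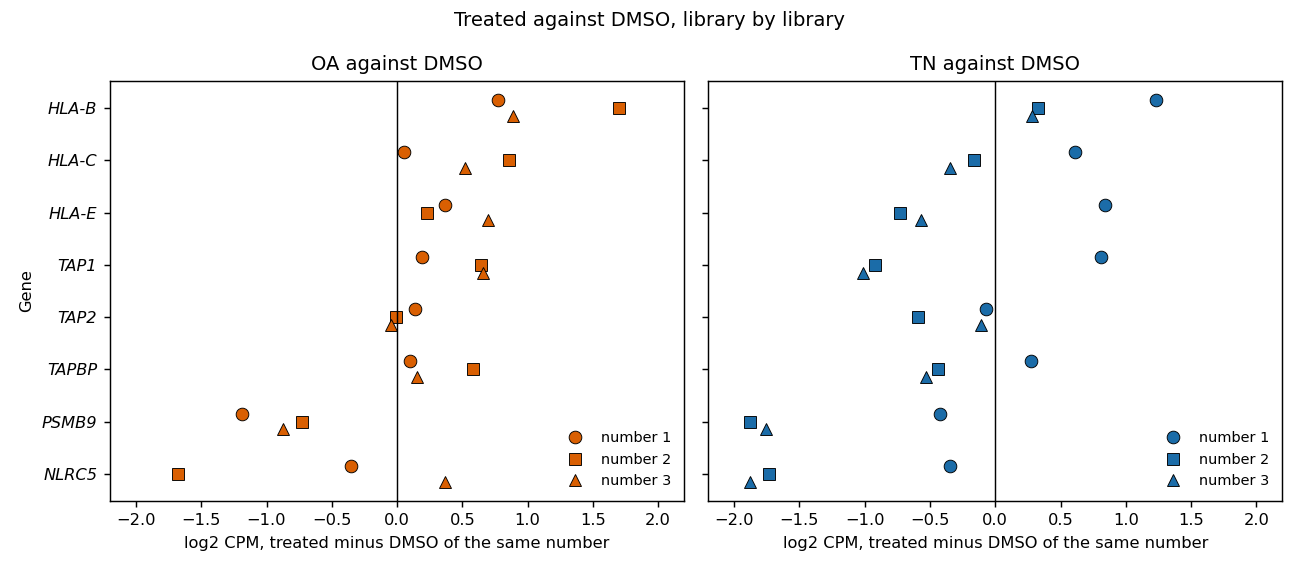
The plot shows, for 8 genes (PSMB8 has too few counts), the difference in log2 CPM between each treated library and the DMSO library of the same number, for OA on the left and TN on the right. In the TN panel, numbers 2 and 3 lie close together except for TAP2, and number 1 lies to the right of both for each of the 8 genes, by little for TAP2.

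Taken number by number, the direction of the TN difference depended on the number for 4 of the 9 genes. For TAP1, the TN library exceeded its DMSO library by 0.81 on the log2 scale at number 1 and was below it at numbers 2 and 3, with differences of -0.92 and -1.01. HLA-E differed by 0.84 at number 1 and by -0.73 and -0.57 at numbers 2 and 3. HLA-C differed by 0.61 at number 1 and by -0.16 and -0.35 at numbers 2 and 3, and TAPBP by 0.27, -0.44, and -0.53 in this order. HLA-B was higher in the TN library at each number, by 1.23, 0.33, and 0.28. PSMB9 was lower at each number, by -0.42, -1.88, and -1.76, and so was NLRC5, by -0.35, -1.73, and -1.88. The differences at number 1 rest on 1 library in each group and have no replicate check.

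The OA and TN effects were then compared directly in 1 fit of all 12 libraries. For each of the genes other than PSMB8, the OA effect minus the TN effect was positive, from 0.21 for TAP2 to 1.04 for TAP1. PSMB8 was at 2.59, but it passed the filter on low counts through libraries numbered 2 and 3, so its direction is not taken as a result. With PSMB8 included, the median over the 9 was 0.55, compared to -0.06 for all tested genes. None of these differences passed: by the edgeR quasi-likelihood F test, Benjamini-Hochberg adjusted, 0 of 15429 genes were called (0%), and the adjusted p was 1 for each of the 9. At an unadjusted p under 0.05, 0 of the 9 passed, where 2.26% of all tested genes did. DESeq2 called 0 of the 9. TAP1 had a difference of 1.04 ± 0.58 (SE, 12 libraries) and NLRC5 one of 1.02 ± 0.76. A different response of these genes to the stressors was therefore not shown.

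In the TN experiment, HLA-B, TAP1, TAP2, PSMB9, and NLRC5 were higher in libraries numbered 2 and 3 than in the library numbered 1 within each condition. PSMB8 passed the filter on low counts through the libraries numbered 2 and 3, where it is high, so its direction was set by the filter and it enters no count or median of this split. The other 8 genes had at least 10 counts in every library. Their fitted levels were higher in libraries numbered 2 and 3, with treatment in the model, by 0.01 for TAPBP to 2.21 for PSMB9, at a median log2 difference of 0.79 compared to -0.10 for all 12590 genes with such counts. The 5 genes named above are of these 8, where 31.6% of the genes with such counts were higher within each condition. In 4 of the 8, TAP1, TAP2, PSMB9, and NLRC5, both conditions' libraries numbered 2 and 3 were above both libraries numbered 1, where 21.4% of the genes with such counts were (20.7% of all tested genes). In 3 of the 8 the difference was also at least 1 on the log2 scale, where 11.5% of those genes were. The fitted difference was 2.21 ± 0.29 for PSMB9, 1.49 ± 0.32 for NLRC5, 1.11 ± 0.33 for TAP1, and 0.98 ± 0.19 for TAP2 (SE, 6 libraries). Without DMSO library 1, those of NLRC5 and TAP1 were 0.85 and 0.47, the median over the 8 was 0.40, and the lowest of the 8 was -0.43. In that fit 5 of the 8 did not overlap, where 37.4% of the genes with such counts did not. Only 1 of the 8 also differed by at least 1, where 20.4% of those genes did. Without TN library 1, 7 of the 8 did not overlap, where 29% of the genes with such counts did not, and the difference of TAP1 was 2.00. With scaling to total counts, 6 of the 8 did not overlap, where 26.9% of those genes did not. In the OA experiment the same split, over other cultures, gave a median of 0.22 for these 8 genes compared to 0.12 for the 12419 genes with such counts, and TAP2 alone did not overlap, where 12.5% of those genes were higher without overlap. None of the 8 also differed by at least 1 there, where 0.62% of those genes did. Within each condition of the OA experiment, 5 of the 8 were higher at numbers 2 and 3, where 30.7% of those genes were. These were HLA-C, HLA-E, TAP1, TAP2, and TAPBP, so a count of 5 is not particular to the TN experiment.

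PSMB9 showed the widest split of the genes with enough counts in every library. Among the DMSO libraries its level was 7.09 times as high at number 2 and 7.33 times as high at number 3 as at number 1, and among the TN libraries 2.57 and 2.88 times as high. TAP1, whose RefSeq promoter window overlaps that of PSMB9, was 4.05 and 4.4 times as high among the DMSO libraries but 1.22 and 1.25 times as high among the TN libraries. NLRC5 was 4.78 and 4.02 times as high among the DMSO libraries and 1.83 and 1.38 times as high among the TN libraries. TAP2 was 2.36 and 1.96 times as high among the DMSO libraries and 1.64 and 1.90 times as high among the TN libraries. PSMB8 had 1 count at number 1 and 75 counts over numbers 2 and 3 of the DMSO libraries. In the TN libraries PSMB8 had 0 counts at number 1 and 14 at numbers 2 and 3. Its direction was set by the filter, so no fold is given for it.

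The heavy chains and tapasin were also higher at numbers 2 and 3 among the DMSO libraries, HLA-B by about as much as TAP2. Among the TN libraries they stood at 0.639 to 1.12 times the level at number 1. HLA-B was 2.08 and 2.18 times as high at numbers 2 and 3 as at number 1 among the DMSO libraries, but 1.11 and 1.12 times among the TN libraries. HLA-C was 1.73 and 1.8 times as high among the DMSO libraries, and 1.01 and 0.924 times among the TN libraries. HLA-E was 1.90 and 1.83 times as high among the DMSO libraries and 0.639 and 0.686 times among the TN libraries. TAPBP, with the ISRE core closest to its start, was 1.33 and 1.3 times as high among the DMSO libraries and 0.808 and 0.742 times among the TN libraries. The 9 genes therefore did not scale together between the numbers.

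**Figure D4:**
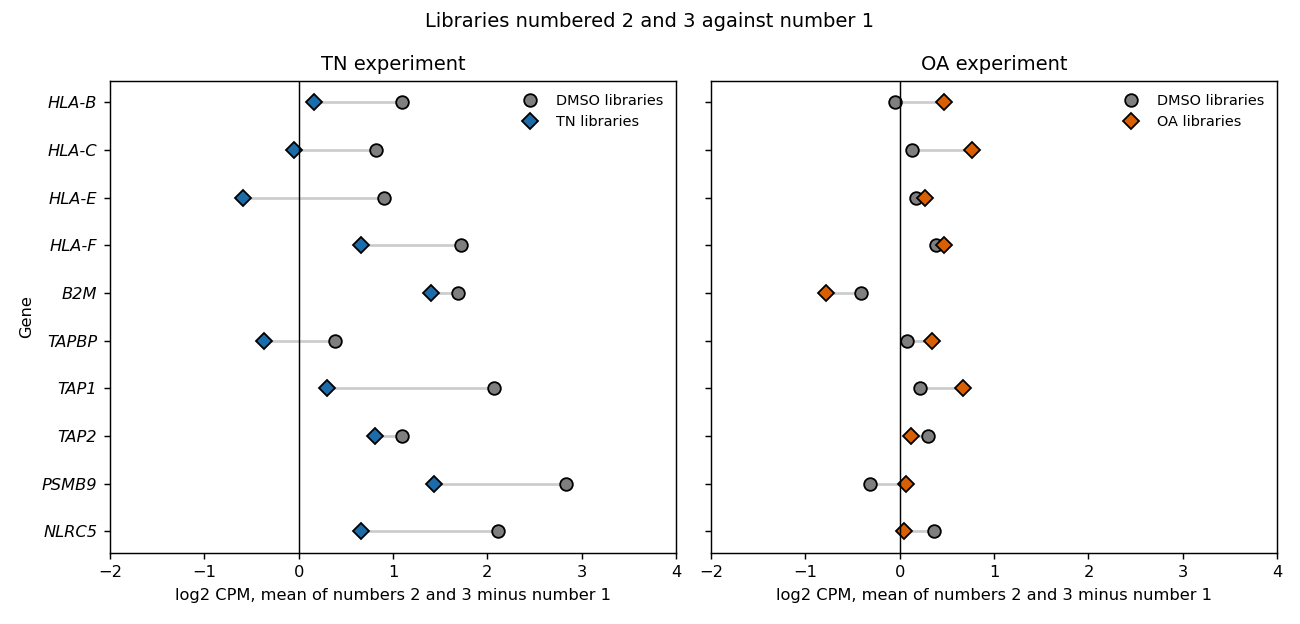
The plot shows the mean log2 CPM of libraries numbered 2 and 3 minus that of number 1 (x axis), within the DMSO libraries (grey) and within the treated libraries (colour), for the TN experiment on the left and the OA experiment on the right, for 8 of the 9 genes and for HLA-F and B2M. In the TN experiment, PSMB9 reaches 2.83 and TAP1 2.07 within the DMSO libraries, and B2M is at 1.69 within the DMSO and 1.40 within the TN libraries.

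Interferons and ISGs were also split by number. The 8 listed interferons summed to 0.11 CPM in DMSO library 1 of the TN experiment and to 79.8 and 78.7 CPM in DMSO libraries 2 and 3, and to 0.843, 15.4, and 15.5 CPM in the TN libraries. IFNB1, the type I interferon of nonimmune cells, was at 0, 11, and 11.1 CPM in the DMSO libraries and at 0, 1.84, and 2.23 CPM in the TN libraries. The 31 listed ISGs found in the files summed to 496, 7630, and 7840 CPM in the DMSO libraries and to 522, 2980, and 3070 CPM in the TN libraries. In the 6 libraries of the OA experiment the same ISGs summed to 401 to 545 CPM. Of the listed ISGs, 23 had at least 10 counts in every library of the TN experiment, with a median log2 difference by number of 3.07. The split was made because ISGs differ between these numbers, so these values describe it and are no test. The part of the interferon genes in the split of the class I genes was not tested.

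**Figure D5:**
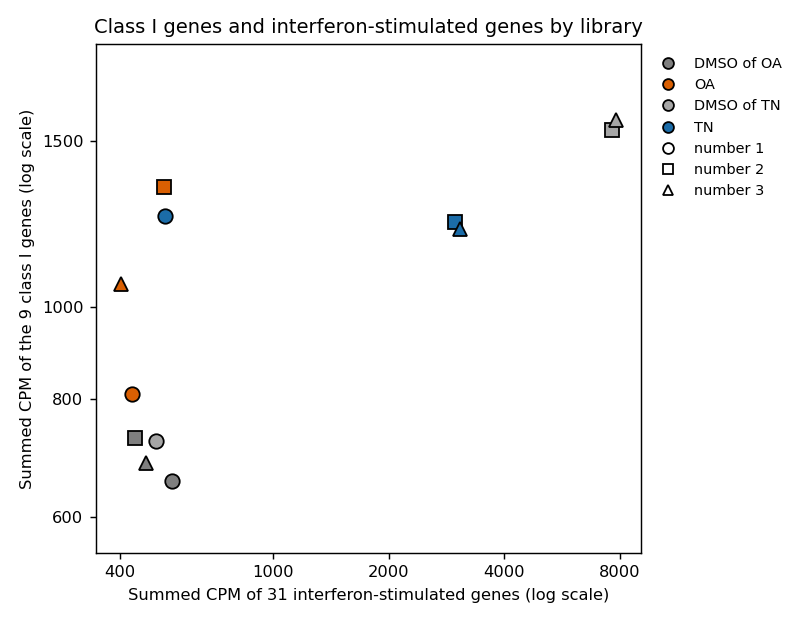
Each point is 1 library, with the summed CPM of 31 ISGs on the x axis (log scale) and the summed CPM of the 9 class I genes on the y axis (log scale), coloured by group and shaped by number. DMSO libraries 2 and 3 of the TN experiment lie highest on both axes, at 1540 and 1580 CPM for the 9 genes, whereas OA library 2 and TN library 1 reach 1340 and 1250 CPM with ISG sums of 520 and 522 CPM.

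The summed level of the 9 genes is given here beside the ISG sums, without a test of their relation. It was 655, 728, and 685 CPM in the DMSO libraries of the OA experiment and 809, 1340, and 1060 CPM in the OA libraries, all of which had ISG sums in the range of the DMSO libraries or below it. In the TN experiment the sums were 723, 1540, and 1580 CPM in the DMSO libraries and 1250, 1230, and 1210 CPM in the TN libraries, so that the TN libraries differed little from each other while their ISG sums differed between number 1 and the other numbers. The heavy chains make up most of these sums. OA library 2 and TN library 1 are also the libraries with the highest RN7SL1 shares, and the part of that in their class I levels was not tested.

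Among the other class I and peptide loading genes, 0 of 8 tested passed in OA-treated cells, where 4.48% of all tested genes did. At the same threshold 2 of 8 rose in TN-treated cells, where 3.65% of all tested genes rose. For OA, 3 of the 8 were at an unadjusted p under 0.05 in edgeR, where 23.3% of all tested genes were, and 3 passed in DESeq2, where 13.1% did. For TN, 4 of the 8 were at an unadjusted p under 0.05, where 24.3% of all tested genes were, and 3 passed in DESeq2, where 15% did. PDIA3 and ERAP1, which trims peptides in the endoplasmic reticulum, were higher without overlap in OA-treated cells. CALR, the lectin chaperone of the loading complex, was at 833, 759, and 771 CPM in the DMSO libraries and at 3720, 2800, and 3050 CPM in the TN libraries. It rose by 2.02 ± 0.20 on the log2 scale (SE, n = 3; adjusted p = 0.00389 by the edgeR quasi-likelihood F test, Benjamini-Hochberg adjusted). PDIA3, the disulphide isomerase of the complex, was at 337, 329, and 322 CPM in the DMSO libraries and at 1240, 1230, and 1210 CPM in the TN libraries, and rose by 1.90 ± 0.17 (SE, n = 3; adjusted p = 0.00301 by the edgeR test). Both are also chaperones of the endoplasmic reticulum for glycoproteins in general. Each passed in every fit that left out 1 library. Within each condition, libraries numbered 2 and 3 were below library 1 for both genes, at fitted differences by number of -0.24 for CALR and -0.03 for PDIA3.

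B2M is the light chain of every class I molecule. It was at 401, 276, and 329 CPM in the DMSO libraries and 365, 149, and 305 CPM in the OA libraries, with a log2 fold change of -0.30 ± 0.35 (SE, n = 3) and an adjusted p of 0.633 by the edgeR quasi-likelihood F test, Benjamini-Hochberg adjusted. B2M was at 367, 1120, and 1240 CPM in the DMSO libraries of the TN experiment and at 289, 763, and 764 CPM in the TN libraries. Its log2 fold change there was -0.59 ± 0.52 (SE, n = 3; adjusted p = 0.547 by the edgeR test), and with the replicate block it fell by 0.53 (adjusted p = 0.0176). Libraries numbered 2 and 3 exceeded those numbered 1 by 1.54 ± 0.13 (SE). The split of B2M was of like size in both conditions, at 3.05 and 3.39 times as high among the DMSO libraries and 2.64 and 2.65 times among the TN libraries.

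Of the 4 listed genes of the inducible proteasome and of proteasome activators outside the 9, PSMB10, PSME1, PSME2, and PSME3, none passed in either comparison by edgeR or DESeq2. At an unadjusted p under 0.05 these were 0 for OA and 1 for TN, where 23.3% and 24.3% of all tested genes were. PSME2, a subunit of the interferon-inducible activator, was at 119, 215, and 241 CPM in the DMSO libraries and 145, 159, and 170 CPM in the TN libraries. The constitutive catalytic subunits PSMB5, PSMB6, and PSMB7 were all lower at numbers 2 and 3 of the TN experiment, without overlap, at fitted log2 differences of -0.82, -0.76, and -0.71, where 18.8% of all tested genes were lower without overlap. These 3 subunits also moved together by number in the OA experiment, where all were higher at numbers 2 and 3 within each condition, at a median of 0.65. Of the genes with at least 10 counts in every library there, 30.7% were. PSMB9, the inducible subunit that replaces PSMB6, was higher at numbers 2 and 3 in both conditions of the TN experiment. PSMB10, which replaces PSMB7, was at 0.767, 3.93, and 4.38 CPM in the DMSO libraries and at 4.32, 1.75, and 3.18 CPM in the TN libraries, so it was higher at numbers 2 and 3 in the first group and lower in the second. For OA and TN, 0 of these 3 subunits passed by edgeR, at an adjusted or unadjusted p, or by DESeq2, with log2 fold changes of -0.18 to 0.12 for OA and -0.53 to -0.25 for TN.

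None of the factors that act on class I promoters passed in either comparison by the edgeR test. Of the 8 tested genes of the enhanceosome list, which holds RFX and NF-Y subunits, CREB1, and ATF1, the log2 fold changes lay between -1.29 and 0.49 in the OA comparison and between -1.02 and 0.59 in the TN comparison. None of these 8 was at an unadjusted p under 0.05 or passed in DESeq2. RFX5 and RFXANK, the most abundant of them, had fitted differences by number of 0.05 and -0.51 in the TN experiment. In the list of interferon and JAK-STAT input, 0 of 11 tested genes passed for OA and 0 of 12 for TN. At an unadjusted p under 0.05 these were 2 for each, where 23.3% and 24.3% of all tested genes were. DESeq2 called 2 for each, where it called 13.1% and 15% of all tested genes. Of 11 genes of this list with at least 10 counts in every library of the TN experiment, 6 were higher without overlap at numbers 2 and 3, where 21.4% of the genes with such counts were, JAK2 among them by 1.31 ± 0.19 (SE). In the NF-kB list, NFKB2 was at 24.3, 28.8, and 23.8 CPM in the DMSO libraries and 48.9, 136, and 63.6 CPM in the OA libraries, with a log2 fold change of 1.69 ± 0.40 (SE, n = 3) and an adjusted p of 0.0525 by the edgeR quasi-likelihood F test, Benjamini-Hochberg adjusted. RELB, named here after its value was seen, was close to it, at 2.05 ± 0.49 with an adjusted p of 0.0564 by the edgeR test. Both passed in DESeq2 for OA, and neither for TN. By number, the fitted differences in the TN experiment were 0.08 for RELB and -0.20 for NFKB2, which average opposite directions in the 2 conditions. RELB was 2.08 and 1.58 times as high at numbers 2 and 3 as at number 1 among the DMSO libraries, and 0.621 and 0.719 times among the TN libraries. NFKB2 was 1.11 and 1.18 times as high among the DMSO libraries and 0.754 and 0.594 times among the TN libraries.

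Ligands of the natural killer receptor NKG2D are relatives of the class I heavy chains that need neither peptide nor B2M. Of 8 tested, 2 rose in OA-treated cells, where 2.76% of all tested genes rose, and in TN-treated cells 1 rose and 1 fell, where 6.99% of all tested genes were called. The other 5 ligands, MICA, ULBP2, ULBP3, RAET1E, and RAET1G, passed in neither comparison. ULBP1 was at 2.15, 1.3, and 1.68 CPM in the DMSO libraries and at 11.7, 5.59, and 5.29 CPM in the OA libraries, a log2 rise of 2.14 ± 0.44 (SE, n = 3; adjusted p = 0.0385 by the edgeR quasi-likelihood F test, Benjamini-Hochberg adjusted). ULBP1 was at 1.31, 2.39, and 2.89 CPM in the DMSO libraries of the TN experiment and at 6.74, 8.67, and 9.1 CPM in the TN libraries, a rise of 1.90 ± 0.36 (SE, n = 3; adjusted p = 0.024 by the edgeR test). RAET1L rose in OA-treated cells by 2.91 ± 0.61 (SE, n = 3; adjusted p = 0.04 by the edgeR test), from 0.305 to 0.474 CPM to 1.47 to 5.59 CPM. These changes took ULBP1 and RAET1L from low levels. MICB was at 37.5, 39.2, and 39.6 CPM in the DMSO libraries and at 19.2, 16.2, and 14.7 CPM in the TN libraries, and fell by 1.22 ± 0.20 on the log2 scale (SE, n = 3; adjusted p = 0.0166 by the edgeR test). ULBP1 did not pass in the OA comparison without any 1 DMSO library or OA library 3, nor did RAET1L, which also failed without OA library 2, and ULBP1 also failed with scaling to total counts. In the TN comparison MICB and ULBP1 did not pass without any 1 of DMSO libraries 2 and 3 and TN libraries 2 and 3, and ULBP1 also failed without DMSO library 1. The groups did not overlap in any of these 4 results.

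Of 10 tested interferon-gamma-biased genes, 2 rose in OA-treated cells, where 2.76% of all tested genes rose. APOL6, an apolipoprotein L family member, was at 0.472, 0.277, and 0.61 CPM in the DMSO libraries and at 5.24, 5.39, and 3.63 CPM in the OA libraries, a log2 rise of 3.39 ± 0.46 (SE, n = 3; adjusted p = 0.0166 by the edgeR quasi-likelihood F test, Benjamini-Hochberg adjusted). ICAM1, the adhesion molecule through which T cells dock, was at 2.62, 1.9, and 1.83 CPM and at 5.38, 11.5, and 9.44 CPM, a rise of 2.04 ± 0.39 (SE, n = 3; adjusted p = 0.0333 by the edgeR test). Neither passed without any 1 of the DMSO libraries, and ICAM1 also failed without OA library 3 and APOL6 in the fit of all 12 libraries. No gene of that list passed in TN-treated cells. Of 12 tested there, 2 were at an unadjusted p under 0.05, where 24.3% of all tested genes were. DESeq2 called 1, ICAM1, where it called 15% of all tested genes. ICAM1, named after its value was seen, had a log2 fold change of 1.22 ± 0.34 (SE, n = 3; adjusted p = 0.0731 by the edgeR test, and 0.0183 with the replicate block). In the ISG list 0 of 26 tested genes passed for OA and 0 of 29 for TN by this test, with medians of -0.18 and -1.38. At an unadjusted p under 0.05 these were 4 and 3, where 23.3% and 24.3% of all tested genes were. DESeq2 called 3 and 1, where it called 13.1% and 15% of all tested genes.

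The transcripts whose levels ran closest to the 9 genes were sought among 13738 others. The measure was Pearson's r over the 12 libraries with the mean of the standardized levels of the 9 genes, after each experiment was centred, so that the libraries' numbers and treatments both enter it. The 5 highest were HLA-F at 0.961, LGALS3BP at 0.944, IFI35 at 0.939, ADAR at 0.926, and PARP12 at 0.924. HLA-F is a nonclassical class I heavy chain, and LGALS3BP is a secreted glycoprotein. That mean was lowest in DMSO library 1 of the TN experiment, at -1.39, and highest in DMSO libraries 2 and 3, at 1.17 and 1.14. It therefore follows the split by number in large part. Within the 9, TAP1 ran closest to the mean of the other 8, at 0.992, and HLA-C stood at 0.752. PSMB8 stood at 0.87, but its direction by number was set by the filter, so it is not ranked, although it enters the mean. HLA-B ran least close, at 0.447, and NLRC5, PSMB9, and TAPBP lay between 0.541 and 0.571. These values are descriptions over 12 points that share 2 sets of cultures.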

How the data were processed

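RNA from 12 libraries of HCT116 cells was sequenced (stranded total RNA per the labels, mRNA per the study's methods). The authors aligned reads to hg38 with STAR and deposited raw gene counts with a Gencode annotation. Which strand column was deposited is not given in the sources used here. The deposited tables of the authors' DESeq2 comparisons (means, log2 fold changes, standard errors, statistics, p-values) were not used.

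Here counts were scaled by TMM, filtered by group (filterByExpr), and tested with edgeR 4.0.16 (R 4.3.3), quasi-likelihood, two-sided, for each stressor separately, p adjusted by Benjamini-Hochberg over all genes tested, at a threshold of 0.05. The difference of the effects was fitted over all 12 libraries. Coordinates came from a GENCODE annotation of the same assembly. Standard errors were taken from the fold change and its F statistic. Log2 CPM used a prior count of 2. Alternatives were DESeq2 1.42.0, other scalings and filters, the replicate number as a block, 1 fit of all 12 libraries, and leaving out each library. GC offsets, libraries numbered 2 and 3 alone, fits within a condition, and, for the split by number, the restriction to genes with at least 10 counts in every library and the count within each condition were added after the data were seen. Scripts were tested on simulated data. The members, the pathway lists, and the split by number were chosen with earlier results of these data known. Named beyond the 9 genes were, for each list and comparison, up to 5 genes past the threshold, or otherwise the 2 of highest mean level; the 3 with the largest difference by number; B2M; and the 5 genes most like the 9. Not all of these are printed, and some genes are not reported here.

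Totals of 9884124 to 24983573 counts per library give PSMB8 fewer than 50 counts in each library. The labels call the replicates biological, but do not say whether cultures were independent, so p-values measure the spread between these libraries. Deviations of same-numbered libraries of the TN experiment correlated at 0.639, 0.409, and 0.427 across genes, so the block is given beside the test without it, which remained the main test. DMSO library 3 correlated as much with TN library 2 (0.436). In the OA experiment the values were 0.625, 0.539, and 0.0908, and the libraries were not taken as paired. No 2 libraries of the same group agreed within sampling noise, and pairs across groups were not compared.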

Additional observations from a re-analysis of the deposited data

Results flagged for a closer look

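TAP1 was set apart because its OA and TN effects point opposite ways, at log2 fold changes of 0.52 ± 0.27 and -0.64 ± 0.49 (SE, n = 3 per group). On the log2 CPM scale all 3 OA libraries exceeded the mean of their DMSO libraries and all 3 TN libraries fell short of theirs. The difference of the effects was 1.04 ± 0.58 (SE, 12 libraries), and it did not pass the edgeR quasi-likelihood F test, Benjamini-Hochberg adjusted (unadjusted p = 0.0976, adjusted p = 1). DMSO library 1 of the TN experiment, at 56.6 CPM, lay below every TN library, while DMSO libraries 2 and 3 lay at 229 and 249 CPM.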

How the results depend on the processing

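In the OA comparison, the 658 genes called became 1927 with DESeq2, 1572 with no filter, 1681 in 1 fit of all 12 libraries, 2983 with GC offsets, 3914 with the replicate block, and 4398 with the block and GC offsets. They ranged from 3 to 1179 when 1 library was left out, with 3 without DMSO library 2 or 3, 5 without DMSO library 1, 91 without OA library 3, and 1179 without OA library 1. Of the 9 class I genes, 2 were called with DESeq2, GC offsets, or the replicate block, 3 with the block and GC offsets, and 0 to 1 when 1 library was left out, where 26.7% of all tested genes were called with the block. The second was PSMB9, with adjusted p from 0.0185 to 0.0471 in those 4 fits by edgeR or DESeq2, and the third TAP1. HLA-B passed in all 9 fits that kept every library. The median over the 9 was 0.24 with scaling to total counts and ranged from 0.23 to 0.57 when 1 library was left out. TAP2 took the values -0.18 with scaling to total counts, -0.06 in the fit of all 12 libraries, and -0.08 (without OA library 3) to 0.14 when 1 library was left out, with -0.04 without DMSO library 1. Leaving out 1 library gave B2M -0.58 to 0.01 and CALR -0.32 to 0.73, with 0.01 and -0.32 without OA library 2.

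In the TN comparison, the 1009 genes called became 2162 with DESeq2, 1648 with no filter, 3393 with GC offsets, 3915 with the replicate block, 5712 with the block and GC offsets, and 6267 with libraries numbered 2 and 3 alone, and ranged from 151 (without DMSO library 3) to 2361 (without TN library 1) when 1 library was left out. Without DMSO library 2, TN library 2, or TN library 3 they were 183, 301, and 310, and without DMSO library 1 they were 473. Of the 9 genes, 1 was called with DESeq2, 2 with no filter or the block, 3 with the block and GC offsets, 8 (PSMB8 among them) with libraries numbered 2 and 3 alone, and 0 to 1 when 1 library was left out. HLA-C, near 0, changed sign: it was 0 with DESeq2 and with its size factors, 0.03 with the replicate block, with or without GC offsets, and 0.09, 0.13, and 0.02 without DMSO libraries 2 and 3 and TN library 1. APOL6 was at -0.06 with libraries numbered 2 and 3 alone and ranged from -0.30 (without DMSO library 1) to 0.83 when 1 library was left out, and RAET1L from -0.02 (without TN library 2) to 0.95.

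For the difference of the effects, DESeq2 called 2 genes, no filter gave 25, GC offsets gave 2, and leaving out 1 library gave 0 to 4, with 4 without OA library 2. The replicate block left this count at 0. None of the 9 was among them, and the differences of the genes other than PSMB8 stayed positive in every fit that kept or left out a library. For the split by number over the 8 genes other than PSMB8, the median of 0.79 ranged from 0.40 (without DMSO library 1) to 1.02 (without TN library 1) when 1 library was left out. Within the TN libraries alone it was 0.43, under a scaling over all genes without the filter, so it is not on the scale of the 0.79. With the scaling used for the levels above, these differences ran from -0.59 for HLA-E to 1.43 for PSMB9. They were below 0 for HLA-C, HLA-E, and TAPBP. The count without overlap ranged from 4 to 7, with 7 without TN library 1, where 29% of the genes with at least 10 counts in every library did not overlap in that direction. Scaling to total counts moved the median of all genes to -0.23 for OA and -0.18 for TN. It also moved the share of higher calls from 61.6% to 47.1% (352 higher, 395 lower) and from 52.2% to 37.7% (529 higher, 875 lower). The cause of these changes was not tested. With 1 library left out, 2 libraries carry a group. PSMB8, and the low counts of RAET1L and APOL6, limit what can be resolved at this depth.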
